A study of Mus musculus with 11 samples.

Results

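Cultured mesenchymal stem cells (MSCs) of the mouse, stromal cells that can form bone, cartilage and fat cells, were profiled here for 10 genes that carry citrate out of the mitochondria and turn it into fatty acids. These were Slc25a1, Acly, Acss2, Acaca, Acacb, Fasn, Srebf1, Scd1, Scd2 and Elovl6, a list set by the known role of each gene in the pathway. Earlier results of these data were known when the list was set. All 10 were found by symbol among the 28222 genes of the table, and all 10 passed the filter on low counts in each comparison. Polyadenylated RNA of 11 libraries was sequenced. Young mice were 3 to 5 months old and old mice were 18 to 22 months old. The libraries came in 3 labelled batches, with 4 young libraries in batch A, 2 young and 2 old libraries in batch B, and 3 old libraries in batch C. Cells of every library were kept at 2% oxygen in αMEM medium with serum and antibiotics, so that no group without this treatment was compared. Strain, sex and the way the cells were isolated are not given in the sources used here. Nothing in the labels says whether libraries of a group came from separate animals or cultures, and the p-values therefore measure the spread between these libraries, which may be technical.

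Citrate formed in mitochondria leaves them through the citrate carrier, which is encoded by Slc25a1. In the cytosol, ATP citrate lyase (Acly) splits it into acetyl-CoA and oxaloacetate, and acetyl-CoA synthetase (Acss2) makes the same acetyl-CoA from acetate. Acetyl-CoA is used for the acetylation of histones as well as for lipids. For the latter, the acetyl-CoA carboxylases (Acaca in the cytosol, Acacb at the mitochondrial surface) form malonyl-CoA, fatty acid synthase (Fasn) builds palmitate from it, Elovl6 lengthens palmitate, and the stearoyl-CoA desaturases (Scd1 and Scd2) introduce a double bond. Srebf1 encodes SREBP1, the transcription factor known to activate many genes of this pathway.

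Promoter sequences were taken from RefSeq (GRCm38.p6), which gave a window of 250 bases before the start for 8 of the 10 genes, with 3 starts for Srebf1. Scd1 and Scd2 were not in that table. The windows of Fasn and Srebf1, 2 genes that differed most between the young libraries of batch B, of Slc25a1, which hardly differed there, and of Elovl6, which was called in all 3 comparisons that crossed batches, are shown 5′ to 3′. Capitals mark the letters CCAAT (or ATTGG, the same box on the other strand) and CACGTG, an E-box that reads the same on both strands. The Fasn window lies at chr11:120824548-120824797 on the minus strand. The window before the third start of Srebf1, inside the gene, lies at chr11:60210472-60210721 on the minus strand. The Slc25a1 window lies at chr16:17928220-17928469 on the minus strand, and that of Elovl6 at chr3:129532136-129532385 on the plus strand.
Fasn: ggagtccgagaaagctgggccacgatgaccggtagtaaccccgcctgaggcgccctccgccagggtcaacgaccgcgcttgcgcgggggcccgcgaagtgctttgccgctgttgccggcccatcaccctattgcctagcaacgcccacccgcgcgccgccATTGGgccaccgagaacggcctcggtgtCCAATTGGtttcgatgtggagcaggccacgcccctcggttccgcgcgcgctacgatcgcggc
Srebf1: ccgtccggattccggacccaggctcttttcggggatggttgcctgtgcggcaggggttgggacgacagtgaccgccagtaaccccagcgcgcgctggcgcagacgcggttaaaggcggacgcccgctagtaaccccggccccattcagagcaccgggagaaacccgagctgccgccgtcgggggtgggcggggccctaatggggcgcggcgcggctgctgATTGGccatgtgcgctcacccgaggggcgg
Slc25a1: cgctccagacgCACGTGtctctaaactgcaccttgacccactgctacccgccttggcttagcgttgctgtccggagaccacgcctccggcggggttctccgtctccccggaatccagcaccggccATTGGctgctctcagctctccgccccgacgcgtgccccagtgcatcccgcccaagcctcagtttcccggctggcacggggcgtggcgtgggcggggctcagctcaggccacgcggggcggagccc
Elovl6: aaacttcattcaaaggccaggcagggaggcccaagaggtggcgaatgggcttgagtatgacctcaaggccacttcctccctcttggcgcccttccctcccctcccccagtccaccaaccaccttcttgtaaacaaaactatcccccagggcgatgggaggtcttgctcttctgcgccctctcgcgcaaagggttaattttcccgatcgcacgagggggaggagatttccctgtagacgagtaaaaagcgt

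The Fasn window held the CCAAT box 3 times, at -90, -62 and -59 from the start, and the last pair shared letters. In total, 5 of the 8 genes held a CCAAT box in at least 1 window (Slc25a1, Acss2, Acacb, Fasn and Srebf1), against 33.8% of all 32536 promoter windows of this length. The first is a count of genes, with 3 windows for Srebf1, and the second a share of windows, so they are not directly comparable. The E-box CACGTG was found in Slc25a1 alone, at -239, and in 6.04% of all windows. The GC box GGGCGG, which is not in capitals and was searched on both strands, was found in Slc25a1, Acly, Acss2 and Srebf1, and in 33.0% of all windows. The sterol regulatory element TCACNCCAC, the sequence that SREBP proteins are known to bind, was in none of the members' windows and in 1.04% of all windows, again on both strands. Only these letters in these windows were searched. The Acaca window (chr11:84195188-84195437) lies inside the annotated gene, which spans chr11:84129672-84401651. The Acacb window (chr5:114165268-114165517) also lies inside its annotated gene, which spans chr5:114146535-114250761.

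Library totals ran from 11969336 to 20315934. A floor of 3 counts per library, given for reading low values and not used as a filter, was 0.156 to 0.253 in CPM (counts scaled to a fixed total). The young libraries of batch B differed more from each other than any other replicates, with a chi-square of 48.5 per gene against 3.07 to 22.1 in the other pairs of a group. Among the defining MSC markers, Pdgfra was at 109 to 289 CPM and Ly6a, which encodes Sca-1, at 270 to 778 CPM. Pecam1 of endothelial cells was at 0 to 0.588 CPM and the blood cell marker Ptprc at 3.47 to 22.2 CPM. The summed level of 13 MSC markers, including the collagen genes Col1a1 and Col1a2, was 90968 to 100814 CPM in batch A, 76411 CPM and 46541 CPM in replicates 1 and 2 of the young libraries of batch B, 41435 to 43745 CPM in the old libraries of batch B, and 36917 to 39012 CPM in batch C. All CPM values use totals scaled by TMM factors.

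Per kilobase of exon, Scd2 had the highest level of the 10 genes and Acacb the lowest. The mean over the 11 libraries was 68.0 CPM per kilobase for Scd2, 39.1 for Slc25a1, 27.3 for Acly, 24.6 for Scd1, 15.5 for Srebf1, 13.3 for Fasn, 4.84 for Elovl6, 3.75 for Acaca, 1.26 for Acss2 and 0.466 for Acacb. From Scd2 to Fasn, the ranges over the libraries of each gene and the next in this order overlapped, as did those of Elovl6 and Acaca. Fasn and Elovl6, Acaca and Acss2, and Acss2 and Acacb did not overlap. The order rests on the exon length of all transcripts together. With the length of the longest transcript, Acaca came before Elovl6, and the other 8 genes kept their place. Scd2 stood above 96.1% of the genes tested in the comparison of ages, Fasn above 80.1%, Acss2 above 32.3% and Acacb above 19.8%.

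**Figure D1:**
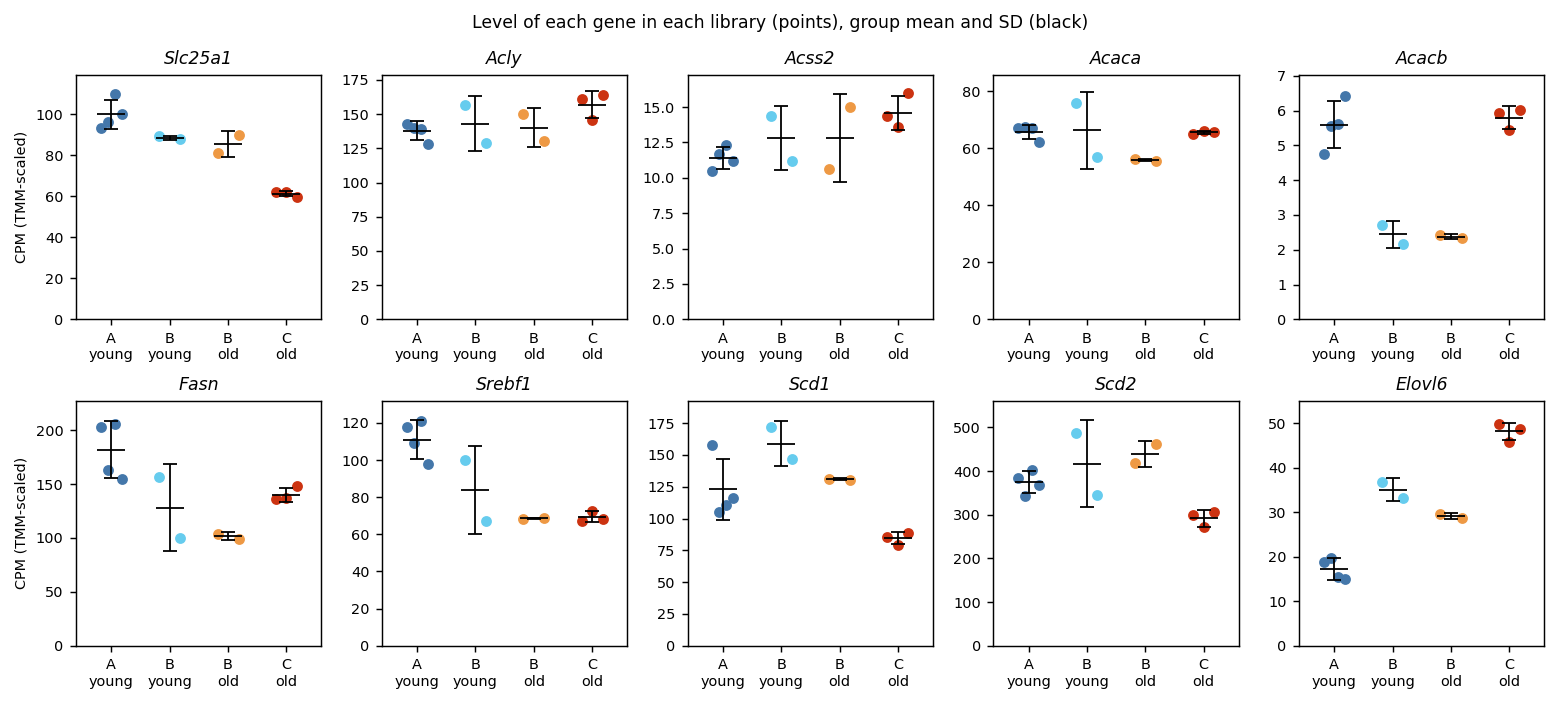
Level of each of the 10 genes in CPM (vertical axis, from 0) in each of the 11 libraries (points), by batch and age (horizontal axis). Black lines give the mean and SD of each group. In batch B young, replicate 1 lies above replicate 2 in every panel, and Elovl6 is lowest in batch A and highest in batch C.

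The first question was whether the pathway differed between ages, and batch B alone held both. No member passed the threshold in this comparison, where 2.23% of the 16132 genes tested were called by edgeR's quasi-likelihood test (360 genes with a Benjamini-Hochberg adjusted p under 0.05). None of the 10 had an unadjusted p under 0.05, as did 16.1% of all genes. DESeq2 and limma-trend also called 0 of them. The log2 fold change of old against young was below 0 for 9 members and ranged from -0.34 in Fasn to 0.075 in Scd2, with a median of -0.15 against 0.0044 for all genes. Scaling by total counts left 5 members below 0. In the self-test on simulated counts, this fit found 70% of genes changed 2-fold, and smaller changes were not simulated. The simulated spread beyond counting error was 1 fixed value for every gene (a dispersion of 0.02). In the young libraries of batch B, the SD was 31.4% of the mean in Fasn and 28% in Srebf1. The 70% therefore need not hold for such genes. Of the 360 calls with TMM, 31.1% were higher in old libraries, and of the 335 calls with total counts, 44.8% were.

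Fasn was at 157 and 99.7 CPM in the young libraries of batch B and at 104 and 99.1 CPM in the old ones. Thus replicate 1 of the young libraries stood above the other 3, and replicate 2 lay between the old libraries. The log2 fold change was -0.34 (SE 0.18, adjusted p = 0.37, edgeR). Srebf1 had the same arrangement, with 100 and 67.3 CPM in young and 68.5 and 68.7 CPM in old libraries, and a log2 fold change of -0.29 (SE 0.15, adjusted p = 0.365). Acaca, for the carboxylase of the cytosol, was at 75.8 and 56.8 CPM in young and at 56.2 and 55.6 CPM in old libraries, where the groups were apart by less than the spread between the young libraries (log2 fold change -0.25, SE 0.12, adjusted p = 0.326).

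The enzymes that modify palmitate came next. Scd1 was at 172 and 147 CPM in young and at 131 and 130 CPM in old libraries, without overlap, and its log2 fold change was -0.29 (SE 0.16, adjusted p = 0.395). Elovl6 was at 36.9 and 33.3 CPM in young and at 29.7 and 28.8 CPM in old libraries, again without overlap (-0.27, SE 0.14, adjusted p = 0.349). Both genes were thus lower in the old libraries by an amount that did not pass the test. The groups did not overlap in 3 of the 10 members (Acaca, Scd1 and Elovl6), and in 39.7% of all genes tested. Scd2, at 488 and 346 CPM in young and 418 and 461 CPM in old libraries, overlapped.

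The genes that supply acetyl-CoA were close to equal in both ages. Slc25a1 was at 89.1 and 87.8 CPM in young and 81.0 and 89.9 CPM in old libraries (log2 fold change -0.05, SE 0.11, adjusted p = 0.859, edgeR). Acly was at 157 and 129 CPM in young and 150 and 130 CPM in old libraries (-0.027, SE 0.12, adjusted p = 0.936). Acss2 was at 14.4 and 11.2 CPM in young and 10.6 and 15 CPM in old libraries (-0.0057, SE 0.18, adjusted p = 0.992). In each of the 3 genes the young and old libraries overlapped. Acacb, the carboxylase tied to the control of fatty acid oxidation, was at 2.71 and 2.18 CPM in young and 2.42 and 2.34 CPM in old libraries, from 32 to 52 counts per library.

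The comparison of ages turned on the young libraries of batch B. Without replicate 2 of these, 3 members passed the threshold, all lower in old: Acaca at -0.44 (adjusted p = 0.0122), Fasn at -0.63 (adjusted p = 0.0186) and Srebf1 at -0.55 (adjusted p = 0.0124) on the log2 scale. That fit called 12% of all genes. Without replicate 1, no member passed, and the values of the same genes were -0.025, 0.026 and 0.027. In these fits the lone young library of batch B was assumed to vary like the other groups. When batch was not fitted, Slc25a1 (-0.42, adjusted p = 0.0362) and Srebf1 (-0.55, adjusted p = 0.0203) were lower and Elovl6 was higher (0.82, adjusted p = 0.0493) in old libraries, where age and batch cannot be told apart. The fit without batch called 18% of all genes.

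**Figure D2:**
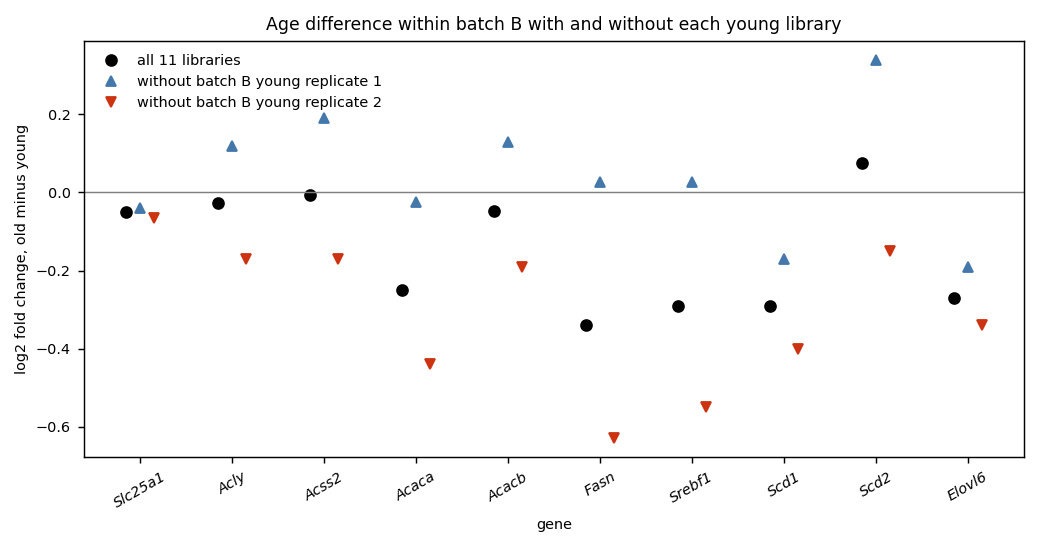
Log2 fold change of old against young within batch B (vertical axis) for each gene (horizontal axis) with all 11 libraries (black circles), without replicate 1 (blue triangles) and without replicate 2 (red triangles) of the young libraries of batch B. Fasn goes from 0.026 without replicate 1 to -0.63 without replicate 2.

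All 10 members were higher in replicate 1 than in replicate 2 of the young libraries of batch B, while 52.5% of all tested genes were. The log2 difference between them was 0.65 in Fasn, 0.58 in Srebf1, 0.49 in Scd2, 0.42 in Acaca, 0.36 in Acss2, 0.30 in Acacb, 0.29 in Acly, 0.23 in Scd1, 0.15 in Elovl6 and 0.022 in Slc25a1. The median was 0.33, against 0.026 for all genes. Fasn and Srebf1 lay above 91.8% and 89.9% of all genes in this difference, and Slc25a1 near the middle, above 49.5%. Replicate 1 also had the higher summed level of the MSC markers given above and of blood cell markers (817 against 414 CPM over 17 genes), and the lower one of osteoblast markers (702 against 1019 CPM over 8 genes). The sum of MSC markers includes the collagen genes, and the defining markers went both ways. Pdgfra was higher in replicate 1 (236 against 194 CPM) and Ly6a was lower (651 against 778 CPM). The total of replicate 1 was 20242201 counts, against 14811091. The part of these differences in the pathway genes was not tested. Between the old libraries of batch B, 6 members were higher in replicate 1 and 4 in replicate 2, with a median log2 difference of 0.014.

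Elsewhere the members deviated in both directions within each library, and their median deviations were smaller on the log2 scale. Against the mean of their own group, 7, 5, 8 and 2 of the 10 genes were above in replicates 1 to 4 of batch A. In batch C, 6, 3 and 8 were above in replicates 1 to 3. The share of all genes above the mean was between 47.0% and 52.5% in every library of the series. The deviations of the members had medians between -0.078 and 0.064 on the log2 scale outside the young libraries of batch B, where they were 0.17 and -0.17. With 2 libraries in that group, these values are mirror images of 1 difference. The median absolute deviation of all genes was 0.15 there, and 0.075 and 0.073 in replicates 2 and 3 of batch C. In those replicates the members' medians, -0.078 and 0.058, were also near the size of that spread.

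Ratios of levels per kilobase within a library were then compared, which do not depend on the factor that scales a library. Fasn over Srebf1 was at 0.887, 0.770, 0.874 and 0.814 in batch A, at 0.802 and 0.762 in the young and 0.781 and 0.742 in the old libraries of batch B, and at 1.05, 0.969 and 1.11 in batch C. Batch C thus stood above all other libraries, and the young libraries of batch B, which differed in both genes, hardly differed in their ratio. With the length and GC correction, which acts on each gene, Fasn and Srebf1 had the same log2 fold change of batch C against batch B in old libraries (-0.43 each, against 0.46 and 0.012 without it), so that the higher ratio of batch C over these libraries rests on the uncorrected levels. Acly over Slc25a1, the lyase against the carrier, was 0.520 to 0.762 in batches A and B and 0.965 to 1.12 in batch C. Elovl6 over Fasn was 0.128 to 0.207 in batch A and 0.401 to 0.622 in the others. Acaca over Acacb was 13.1 to 15.8 in batch B, and 5.47 to 7.93 in batches A and C. Scd2 over Scd1 was between 2.11 and 3.24, with overlap of batch A and batch B.

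**Figure D3:**
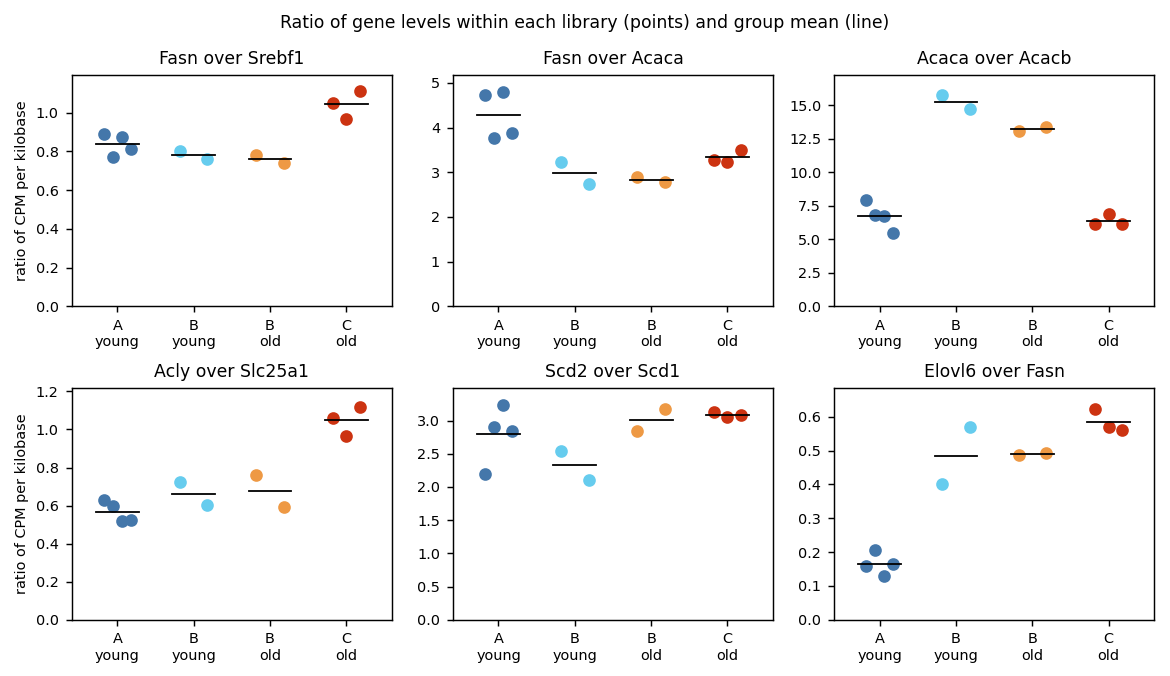
Ratio of CPM per kilobase of exon of 6 pairs of genes (vertical axes, from 0) in each library (points) by batch and age (horizontal axis), with the group mean as a line. Fasn over Srebf1 and Acly over Slc25a1 are highest in batch C, and Acaca over Acacb is highest in batch B.

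At a constant young age, batches A and B differed in 2 members, and 18.1% of the 14840 genes tested were called. The share of calls higher in batch B was 51.9% with TMM and 66.4% of the calls made with total counts. Elovl6 was at 18.9, 19.8, 15.5 and 14.9 CPM in batch A and at 36.9 and 33.3 CPM in batch B. Every batch B library was above every batch A library, with a log2 fold change of 1.04 (SE 0.15, adjusted p = 0.00166, edgeR). Acacb was at 4.76, 5.57, 5.61 and 6.42 CPM in batch A, above both libraries of batch B at 2.71 and 2.18 CPM, and its log2 fold change was -1.16 (SE 0.24, adjusted p = 0.00825). The call of Acacb was lost with the correction for transcript length and GC content (-0.64, adjusted p = 0.0866) and without replicate 2 of batch B (-1.02, adjusted p = 0.0854), and Elovl6 was called in each alternative. Fasn (log2 fold change -0.48, adjusted p = 0.0803) and Srebf1 (-0.39, adjusted p = 0.103) passed when replicate 1 of batch B was left out, at -0.84 (adjusted p = 0.00722) and -0.70 (adjusted p = 0.0063), and Fasn passed also by DESeq2 (-0.49, adjusted p = 0.0433) and with no filter (-0.48, adjusted p = 0.0125). Scd1 (0.40, adjusted p = 0.0971) passed with total counts (0.48, adjusted p = 0.0431), with no filter (0.39, adjusted p = 0.0433) and without replicate 1 of batch A (0.54, adjusted p = 0.0147), and Acaca (0.032, adjusted p = 0.886) with the length and GC correction alone (0.31, adjusted p = 0.0351). Slc25a1, Acly, Acss2 and Scd2 had log2 fold changes between -0.15 and 0.19 and adjusted p-values between 0.395 and 0.694.

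Among the old libraries, 7 of the 10 members differed between batches B and C, where 64.7% of the 15651 genes tested were called, so that a share of this size is near the background. Of these, 4 were higher in batch C (Acaca, Acacb, Fasn and Elovl6) and 3 lower (Slc25a1, Scd1 and Scd2). The members therefore moved in both directions. The groups did not overlap in the same 7 genes, and in 76.3% of all genes tested. The share of calls that were higher in batch C was 49.6% with TMM and 62.9% with total counts, which moved the median of all genes from 0.023 to 0.22 on the log2 scale. With total counts all 10 members passed, where 65.8% of all genes were called. The balance of directions depended on the length and GC correction. Without it, 7 of the 10 members had a log2 fold change above 0, with a median of 0.17. With it, 3 did, and the median was -0.41, against -0.083 for all genes.

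The citrate carrier gene Slc25a1 was at 62.2, 62.0 and 59.8 CPM in batch C and at 81.0 and 89.9 CPM in the old libraries of batch B. Batch C lay below, with a log2 fold change of -0.48 (SE 0.07, adjusted p = 6.5e-05, edgeR). Acly was at 161, 146 and 164 CPM in batch C and at 150 and 130 CPM in batch B (0.16, SE 0.08, adjusted p = 0.104), with overlap, and passed without replicate 1 of batch B (0.26, adjusted p = 0.0111) or replicate 2 of batch C (0.22, adjusted p = 0.0484). Acss2, which overlapped too (0.19, SE 0.15, adjusted p = 0.276), passed without replicate 2 of batch B (0.46, adjusted p = 0.013). The desaturase genes were both lower in batch C. Scd1 was at 85.8, 79.5 and 88.8 CPM in batch C and at 131 and 130 CPM in batch B (-0.63, SE 0.07, adjusted p = 5.6e-06), and Scd2 was at 300, 271 and 307 CPM in batch C and at 418 and 461 CPM in batch B (-0.59, SE 0.08, adjusted p = 2.62e-05). These neighbours on chromosome 19 are similar in sequence, and reads can have been shared between them.

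Elovl6 was higher in batch C, at 49.8, 45.9 and 48.8 CPM against 29.7 and 28.8 CPM in batch B (0.72, SE 0.08, adjusted p = 5.65e-06, edgeR). Acacb was at 5.94, 5.43 and 6.02 CPM against 2.42 and 2.34 CPM (1.28, SE 0.20, adjusted p = 0.000134). Both genes stood apart without overlap, and both stayed higher with the length and GC correction. Fasn was at 136, 137 and 148 CPM in batch C against 104 and 99.1 CPM in batch B (0.46, SE 0.07, adjusted p = 8.33e-05), and Acaca at 65.0, 66.1 and 65.8 CPM against 56.2 and 55.6 CPM (0.23, SE 0.06, adjusted p = 0.00784). The direction of these last genes depended on the correction, with which Fasn fell to -0.43 (adjusted p = 5.64e-05), Acaca to -0.40 (adjusted p = 0.000162) and Srebf1 to -0.43 (adjusted p = 0.00011). Without it, Srebf1 was level between the batches, at 67.0, 72.8 and 68.4 CPM in batch C and 68.5 and 68.7 CPM in batch B.

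**Figure D4:**
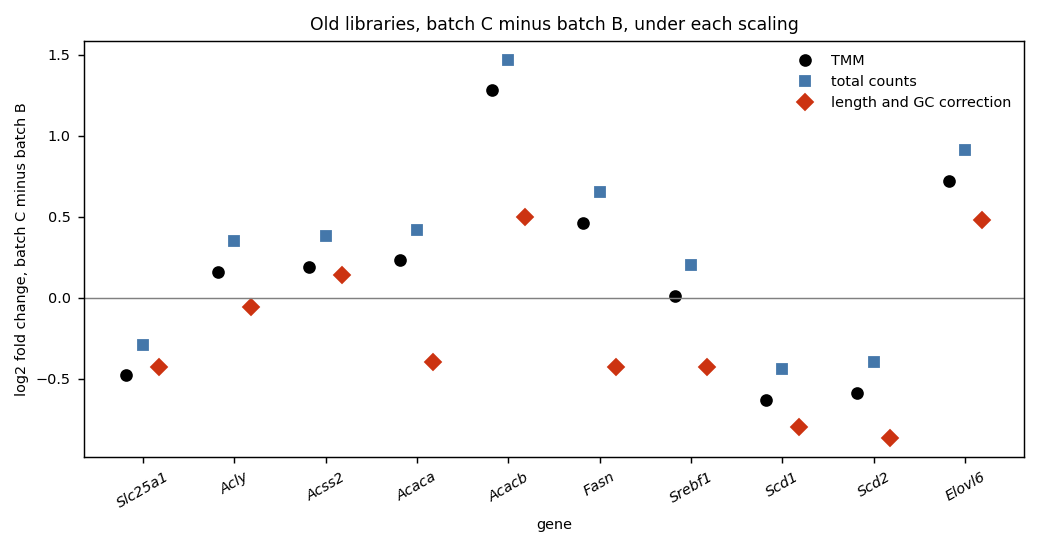
Log2 fold change of batch C against batch B in old libraries (vertical axis) of each gene (horizontal axis) with TMM factors (black circles), with total counts (blue squares) and with the correction for transcript length and GC content (red diamonds). Fasn goes from 0.46 to -0.43 and Acaca from 0.23 to -0.40 with the correction, whereas Slc25a1, Scd1 and Scd2 stay below 0.

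The old libraries of batch C and the young ones of batch A shared neither age nor batch, and age and batch cannot be told apart between them. In this comparison, 8 members passed, 3 higher and 5 lower in batch C, and 63.8% of the 15021 genes tested were called. The share of calls higher in batch C was 50.1% with TMM and 72.5% of the calls made with total counts. Elovl6 had the greatest difference of the 10, with a log2 fold change of 1.53 (SE 0.10, adjusted p = 9.46e-08, edgeR), or 2.9-fold. Srebf1 was at 118, 109, 121 and 97.9 CPM in batch A, above all 3 libraries of batch C, with a log2 fold change of -0.62 (SE 0.08, adjusted p = 2.4e-05). Slc25a1 was at 93.3, 96.2, 110 and 100 CPM in batch A and had a log2 fold change of -0.64 (SE 0.07, adjusted p = 8.17e-06).

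Acly, at 143, 140, 139 and 128 CPM in batch A, was slightly higher in batch C (0.25, SE 0.07, adjusted p = 0.00665), and so was Acss2, at 10.5, 11.7, 12.3 and 11.2 CPM in batch A and 14.4, 13.6 and 16 CPM in batch C (0.42, SE 0.11, adjusted p = 0.00486). Hence the transcripts of Acly and Acss2 were higher, and that of Slc25a1 lower, in batch C than in batch A. Against the old libraries of batch B, Acly (0.16) and Acss2 (0.19) were not called and overlapped. Exon bases of Acss2 overlap Gss (3.89%), Acss2os (3.30%) and Ggt7 (1.94%) on the opposite strand, and those of Srebf1 overlap Rai1 (1.9%). The use of strand in counting is not given in the sources used here. Fasn was at 203, 163, 206 and 155 CPM in batch A and lower in batch C (-0.31, SE 0.10, adjusted p = 0.0151). The call of Fasn was lost without replicate 1 (adjusted p = 0.0515) or replicate 2 (adjusted p = 0.052) of batch C, and that of Acly without replicate 3 (adjusted p = 0.0524). Scd1, at 158, 105, 111 and 116 CPM in batch A, had a log2 fold change of -0.48 (SE 0.12, adjusted p = 0.00377) and Scd2, at 385, 343, 402 and 369 CPM, of -0.30 (SE 0.08, adjusted p = 0.00429). With total counts in place of TMM, which moved the median of all genes to 0.31, the calls of Fasn (-0.018), Scd1 (-0.18) and Scd2 (-0.005) were lost. Acaca (0.055, adjusted p = 0.465) and Acacb (0.12, adjusted p = 0.517) did not pass, and their libraries overlapped. Both passed with total counts, at 0.35 and 0.41, and Acaca was lower with the length and GC correction (-0.24, adjusted p = 0.00476). That correction moved the median of the members from -0.12 to -0.32, and that of all genes to -0.093. It left 3 members above 0, against 5 without it.

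**Figure D5:**
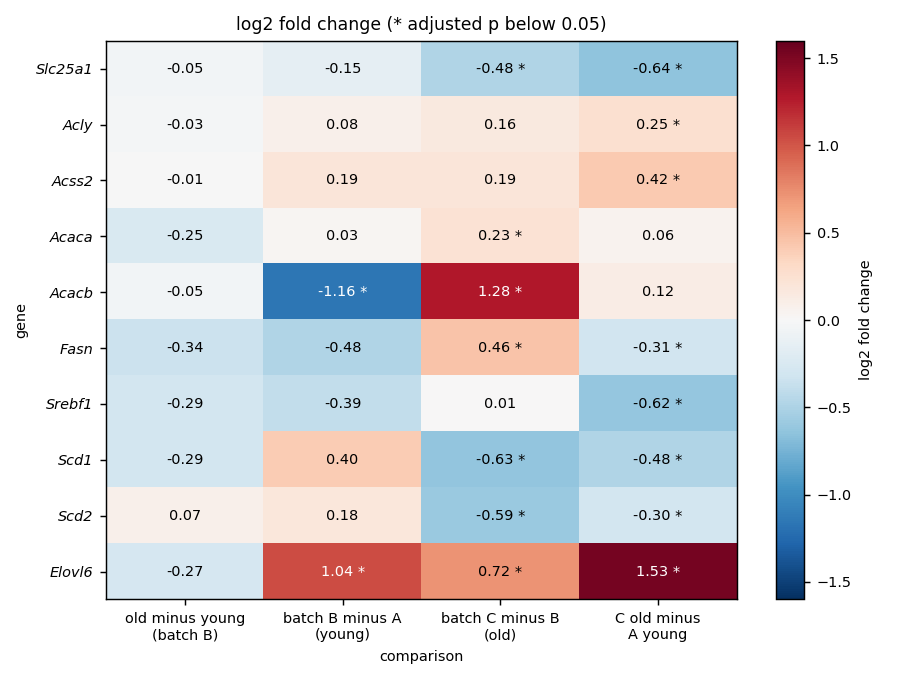
Log2 fold change of each of the 10 genes (rows) in each of the 4 comparisons (columns), coloured from lower (blue) to higher (red), with an asterisk where the adjusted p was below 0.05. No gene passes between ages in batch B, and Elovl6 passes in the other 3 comparisons, higher in each.

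The summed level of fat cell genes was higher in batch C than in the other batches. Of the 9 adipocyte markers tested, 8 were higher in batch C than in batch B among the old libraries, with a median log2 fold change of 1.97. Against batch A, all 8 tested were higher, with a median of 1.27. In batch B alone, 6 markers of this list passed the low-count filter. A marker that passed only through the group in which it was high was bound to differ that way. The marker counts and medians are therefore description only. Of all genes, 32.1% were called higher and 32.6% lower in batch C than in batch B. Against batch A, these shares were 32% and 31.9%. The summed level of the 12 markers was 355 to 387 CPM in batch C and 101 to 176 CPM in the other libraries. Adipoq, which encodes adiponectin, was at 8.41, 16.3 and 9.64 CPM in batch C, at 0.166 to 3.74 CPM in batch A, and at 1 to 5 counts in each library of batch B. Lep was at 0 in every library of batch A, of the old libraries of batch B and of batch C. Blood cell markers went the other way, with 14 of 15 tested lower in batch C than in batch B and a summed level of 154 to 174 CPM, against 414 to 1514 CPM in the other batches. Of the 8 osteoblast markers, 5 were higher and 1 lower in batch C than in batch B (median log2 fold change 0.86), and 6 were higher and 0 lower than in batch A by edgeR (median 1.03). In bulk RNA, fewer cells of a type and less RNA per cell cannot be told apart, and the part of these cells in the values of the pathway was not tested. Between ages in batch B, 3 of 13 MSC markers, Pdgfra among them (log2 fold change -0.86, SE 0.15, adjusted p = 0.0059, edgeR), and 1 of 9 adipocyte markers were lower, and 1 of 8 osteoblast markers was higher. Of all genes tested between ages, 1.54% were called lower and 0.694% higher. All 15 blood cell markers tested were above 0 there, with a median of 0.67, and 0 passed by edgeR or limma-trend and 1 by DESeq2.

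A further 106 genes around the pathway, in 6 lists, gave the context, of which 104 were found in the table. Between ages, 4 of 100 tested genes passed, 2 in each direction, against 2.23% of all genes. Pdk4, a kinase that shuts off pyruvate dehydrogenase, was at 49.3 and 57.2 CPM in young and at 120 and 94.3 CPM in old libraries of batch B. Both old libraries were higher, with a log2 fold change of 1.01 (SE 0.14, adjusted p = 0.0016, edgeR), and the call held in every alternative. The old libraries of batch C were at 56.4, 54.4 and 58.1 CPM, near the young ones of batch B. Those of batch A were at 35.7 to 46.8 CPM. Age and batch cannot be told apart between batches A and C. Pdp1, the phosphatase that turns pyruvate dehydrogenase on again, was at 154 and 174 CPM in young and at 51.6 and 104 CPM in old libraries (-1.08, SE 0.27, adjusted p = 0.0456). It was therefore lower in both old libraries, and was at -0.65 (adjusted p = 0.38) without replicate 1 of the old libraries. Me3, a malic enzyme of mitochondria that yields NADPH, was at 5.68 and 7.89 CPM in young and at 2.63 and 3.00 CPM in old libraries (-1.26, SE 0.25, adjusted p = 0.015), and lost its call when either old library was left out. Acsl4, which activates long polyunsaturated fatty acids, was at 54.8 and 62.1 CPM in young and 98.4 and 83.5 CPM in old libraries (0.64, SE 0.15, adjusted p = 0.0403). The calls of Pdp1 and Acsl4 were each lost in 8 of the 11 fits that left out a library. In the edgeR fit of batch B alone, Pdk4 kept its call (adjusted p = 0.0219). The calls of Me3 (adjusted p = 0.0865), Pdp1 (adjusted p = 0.0932) and Acsl4 (adjusted p = 0.13) were lost there. Among 22 regulators of SREBP and lipogenesis, 0 passed by edgeR or limma-trend and 2 by DESeq2, and among 14 genes of elongation and desaturation and 9 of mitochondrial fatty acid synthesis, 0 passed by these 3 tools.

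Between the young libraries, 12 of 98 genes of the lists were higher and 7 lower in batch B than in batch A, and the share called, 19.4%, was near the 18.1% of all genes. Acsl4 (log2 fold change 1.05), Idh1, the NADPH-forming isocitrate dehydrogenase of the cytosol (0.75), and Dld, a subunit of pyruvate dehydrogenase (0.72), had the smallest p-values among the higher genes. Mlxip, a glucose-responsive factor related to ChREBP (-0.81), Pdk2 (-0.58) and Agpat3 (-0.47) had those among the lower genes. Pdk2 lost its call without replicate 2 of batch B (-0.42, adjusted p = 0.149), as did Agpat3 (-0.35, adjusted p = 0.167), and Agpat3 lost it also without replicate 3 or 4 of batch A and with the length and GC correction. Among the old libraries, 15 of 99 were higher and 57 lower in batch C than in batch B, with a median of -0.29, where 32.1% of all genes were higher and 32.6% lower. More genes were lower than higher in elongation and desaturation (0 higher and 11 lower of 14), NADPH supply (1 and 6 of 8), mitochondrial fatty acid synthesis (1 and 7 of 9), and glycerolipid assembly (0 and 7 of 16, fewer calls than the 64.7% of all genes). For SREBP and lipogenic regulators the split was 7 higher and 9 lower of 21, and for citrate and mitochondrial acetyl-CoA 6 and 17 of 31. With total counts the split over all lists was 22 higher and 41 lower. Of the named genes, Trib3, a pseudokinase of stress responses (-1.94), Acsl4 (-1.33) and Ndufab1, the mitochondrial acyl carrier protein (-1.43), were lower, and Cpt1c (0.71), Mlxip (0.89) and Prkab2, a subunit of AMP-activated kinase (0.57), were higher.

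Against batch A, 11 of 98 genes of the lists were higher and 50 lower in batch C, a share of 62.2% called against 63.8% of all genes, of which 32% were higher and 31.9% lower. The lists of elongation and desaturation (0 and 11 of 13) and NADPH supply (0 and 5 of 8) were again lower on balance. The split became 31 higher and 30 lower with total counts. Trib3 (log2 fold change -2.03), Taldo1 (-1.29) and Pgd (-1.14), the latter pair from the pentose phosphate pathway, were lower, and Prkab2 (1.04), Acsl3, an acyl-CoA synthetase (0.68), and Idh1 (0.67) were higher. Elovl6 was thus higher in batch C than in both other batches, where 0 of the listed genes of elongation and desaturation were called higher with TMM and 1 with total counts, against batch A.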

How the data were processed

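RNA-seq counts of 11 libraries were analysed. The authors deposited 1 table of raw counts per Ensembl gene. Its genome build is mm10 (GRCm38) per the submitters' processing notes; the aligner, the counter and the use of strand are not given in the sources used here. Libraries were grouped by the age and batch in their labels. Symbols, lengths and coordinates (1-based) came from GENCODE M21 (28179 of 28222 genes matched).

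Differences were tested by edgeR 4.0.16 in R 4.3.3 (quasi-likelihood) using TMM factors, filterByExpr with a minimum count of 5, two-sided p-values and Benjamini-Hochberg adjustment at 0.05. The age fit used all libraries with batch as a covariate, the others the libraries of their own groups. The prior count was 2. In simulated counts with 200 genes changed 2-fold, these fits recovered 70%, 78.5%, 82% and 87%, in the order of the text. The simulated dispersion was 0.02 for every gene. Outside the age fit, both sides had the same batch profile, and only the 200 genes differed. The real comparisons between batches called 18.1%, 64.7% and 63.8% of genes, so these recoveries need not hold there. The alternatives were DESeq2 1.42.0, limma-trend 3.58.1, RLE factors, scaling to total counts, no filter, a minimum count of 10, a loess correction (span 0.3) for transcript length and GC content, a replicate block, and leaving out each library. The members and lists were chosen with earlier results of these data known, and the alternatives for the wider lists were added after the data were seen.

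The text names all 10 members. Of the wider lists, it names each gene past the threshold between ages and, in the other comparisons, the 3 genes with the smallest p-values per direction. Of the markers, it names Pdgfra, Ly6a, Ptprc, Adipoq and Pecam1, listed by name as defining markers; Pecam1 passed no filter and was not tested. Lep, Col1a1 and Col1a2 were named after their values were seen. Lpin2, Acsf3 and Cldn5 were not analysed here. Library totals are given with the depth, and intervals and floors cover counting error only. Replicate numbers did not pair the libraries.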

Additional observations from a re-analysis of the deposited data

Results flagged for a closer look

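Acaca in replicate 4 of the young libraries of batch A, at 62.2 CPM, stood apart from the other 3 libraries of that group, which were at 67.0 to 67.4 CPM. Its gap to the nearest of them was above Dixon's 95% critical value for 4 samples. The 10 members were examined in this way in batch A, since the other groups had fewer than 4 libraries, and chance alone gives such a gap in about 1 of 20 groups.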

How the results depend on the processing

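Between ages, 0 members were called with any alternative except the fit without a batch term (3) and the omission of replicate 2 of batch B young (0 to 3 over the libraries left out). The wider lists had 4 called genes, 8 with DESeq2, with no filter and with the length and GC correction, 20 without the batch term, 1 in batch B alone, and 1 to 16 when a library was left out. Over all genes, 360 calls became 643 with DESeq2, 1094 with no filter, 2641 without the batch term, 123 in batch B alone, and 84 to 2007 when a library was left out. For batch B against A in young libraries, 2 members were called, 4 with no filter, 1 with the replicate block (Acacb at -1.05, adjusted p = 0.0854, edgeR), and 1 to 4 when a library was left out. The wider lists gave 19 genes, 3 with the replicate block and 5 to 38 when a library was left out. Over all genes, 2686 calls became 729 with the replicate block and 511 to 4031 when a library was left out. Replicate numbers did not pair the libraries (r of -0.11 to 0.04 over the comparisons), and the block changed no other count of members. Counts of members in the comparisons with batch C stayed within 1.5 times of 7 and 8 in every alternative. Fits that left a single library in a group assumed that it varies like the other groups.

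Members changed sign between ages with total counts (Slc25a1 0.014, Acly 0.039, Acss2 0.063, Acacb 0.020), the length and GC correction (Acly 0.032, Acacb 0.16), DESeq2 (Acss2 0.0056), RLE (Acss2 0.0057) and no batch term (Acly 0.13, Acss2 0.24, Scd2 -0.13, Elovl6 0.82). With the length and GC correction, signs also changed in Slc25a1 (0.0013) and Fasn (0.10) for B against A, in Acly (-0.058), Acaca (-0.40), Fasn (-0.43) and Srebf1 (-0.43) for C against B, and in Acaca (-0.24) and Acacb (-0.014) for C against A. The replicate block put Acaca at -0.0092 for B against A. Leaving out a library gave, between ages, -0.13 to 0.032 for Slc25a1, -0.17 to 0.12 for Acly, -0.28 to 0.23 for Acss2, -0.19 to 0.13 for Acacb, -0.63 to 0.026 for Fasn, -0.55 to 0.027 for Srebf1 and -0.15 to 0.34 for Scd2. It gave, for B against A, -0.071 to 0.21 for Acly, -0.0097 to 0.35 for Acss2, -0.19 to 0.22 for Acaca and -0.09 to 0.40 for Scd2, and, for C against B, -0.04 to 0.46 for Acss2 and -0.013 to 0.048 for Srebf1. The cause of these changes was not tested.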
